A study of Mus musculus and Homo sapiens with 14 samples.

Results

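Genes that are widely read as markers of low oxygen and of sugar breakdown were followed in D341, a human Group 3 medulloblastoma line. The 10 genes, VEGFA, ADM, SLC2A1, HK2, PGK1, LDHA, PDK1, BNIP3, CA9 and NDRG1, were chosen by name and identifier out of 37788 genes listed for this line. RNA was sequenced from D341 grown alone (2 libraries) and from D341 that shared medium with Oli-neu, a mouse line of oligodendrocyte precursor cells, through the 0.4 µm pores of a 30 mm insert (2 libraries). Per the labels the 2 libraries of a condition are biological replicates, and every culture received murine EGF and bFGF at 20 ng/mL each. The labels name no low-oxygen treatment. The values are TPM, transcripts per 1000000, a share of each library that also corrects for transcript length, so the levels of different genes can be set side by side.

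When oxygen is short, the subunits HIF-1α and HIF-2α escape the prolyl hydroxylases and the VHL ligase that otherwise have them destroyed. With their partner ARNT they then switch on genes for glucose uptake, glycolysis, new blood vessels, acid handling and the restraint of mitochondria. Several of these genes also answer to growth factor signalling, MYC and nutrient stress, and tumour cells often keep glycolysis high in air. The files pair no other human identifiers with gene names, so the HIF subunits, the hydroxylases, the remaining glycolytic enzymes and the markers of Group 3 tumours or of oligodendrocytes were not analysed here. For the same reason the identity of the line was not checked against markers, and no human sequence was used here.

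Beside Oli-neu, the secreted factor VEGFA, the glucose transporter SLC2A1 and the lactate enzyme LDHA were each higher in both libraries than in both libraries of D341 alone. So were 8.88% of all tested genes. Among genes as abundant as VEGFA and SLC2A1 the share was 11.8%, and among those as abundant as LDHA it was 64.5%. The ratio of mean TPM was 1.34 for VEGFA, 1.33 for SLC2A1 and 1.28 for LDHA. PGK1, with a ratio of 0.839, was lower in both, as were 56.7% of all tested genes. The secreted factor ADM, with a ratio of 5.15, reached 1 TPM only in co-culture and so had to differ between the conditions. CA9 was listed near 0 in every library. None of the 9 tested genes passed the adjusted threshold of 0.05. The typical D341 gene was lower in co-culture, so each gene is given below both as measured and beside the shift of all genes.

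The shift of all genes was measured first. A gene was tested where 2 or more libraries had 1 TPM or more, which held for 12403 genes. Their median log2 fold change of TPM + 1, co-culture minus alone, was -0.31, with quartiles of -0.56 and -0.06. Taken within a replicate number it was -0.32 for number 1 and -0.29 for number 2. In the 2 libraries of D341 alone 12296 and 12478 genes reached 1 TPM, against 11772 and 12006 in co-culture. The 10 most abundant genes held 12.6% and 10.05% of TPM alone and 14.05% and 12.6% in co-culture, so the most abundant transcripts took a larger share in the co-culture library of each number. TPM is a share, and a gene with unchanged RNA per cell reads lower where other transcripts take more. In bulk RNA, fewer cells that express a gene and less of its RNA per cell cannot be told apart either. The depth of the libraries is unknown.

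The shift also depended on how abundant a gene was. The median log2 fold change was -0.39 for 4979 genes with a mean under 10 TPM, -0.35 for 4221 genes from 10 to 40 TPM and -0.19 for 2509 genes from 40 to 200 TPM. It was -0.04 for 539 genes from 200 to 1000 TPM and 0.25 for 155 genes of 1000 TPM or more. Low and middling genes thus read lower in co-culture while the most abundant ones read higher, and 64.5% of the latter were higher without overlap of the libraries. These classes of level were set after the data were seen. The 5 members between 40 and 200 TPM were VEGFA, SLC2A1, HK2, PDK1 and BNIP3. NDRG1 lay in the next class, LDHA and PGK1 in the highest and ADM in the lowest.

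Of the 10 members, 8 had at least 1 TPM in all 4 libraries. Among these, 3 were higher in co-culture without overlap, where 8.88% of all tested genes were, and 1 was lower without overlap, where 56.7% were. The share that was higher without overlap rose with level. It was 11.8% from 40 to 200 TPM, the class of VEGFA and SLC2A1, 23.9% from 200 to 1000 TPM, and 64.5% in the class of LDHA. Their log2 fold changes ran from -0.25 for PGK1 to 0.42 for VEGFA, with a median of 0.16. Of the 8, 6 were above 0, as were 19.8% of all tested genes, a share that holds many genes of lower level. All 8 lay above the median of all genes, and 6 lay above the median of their own class of level, the exceptions being PGK1 and NDRG1. A 9th, ADM, entered the test only through its co-culture libraries and so had to differ between the conditions. limma called 0 of the 9 tested members at an adjusted p under 0.05, while it called 0.355% of all tested genes as higher and 0.274% as lower. The number of genes called, 78, depended on single libraries: it was 1 without D341 alone replicate 1 and 1 without its replicate 2, 524 without D341 with Oli-neu replicate 1 and 2484 without its replicate 2. At an unadjusted p under 0.05, 2 of the 8, VEGFA and SLC2A1, were higher, as were 3.47% of all genes, and 0 were lower, against 30.8% of all genes. An exact permutation test of 2 libraries against 2 cannot give a two-sided p below 0.333, so no single gene can be tested on its own in this way.

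**Figure D1:**
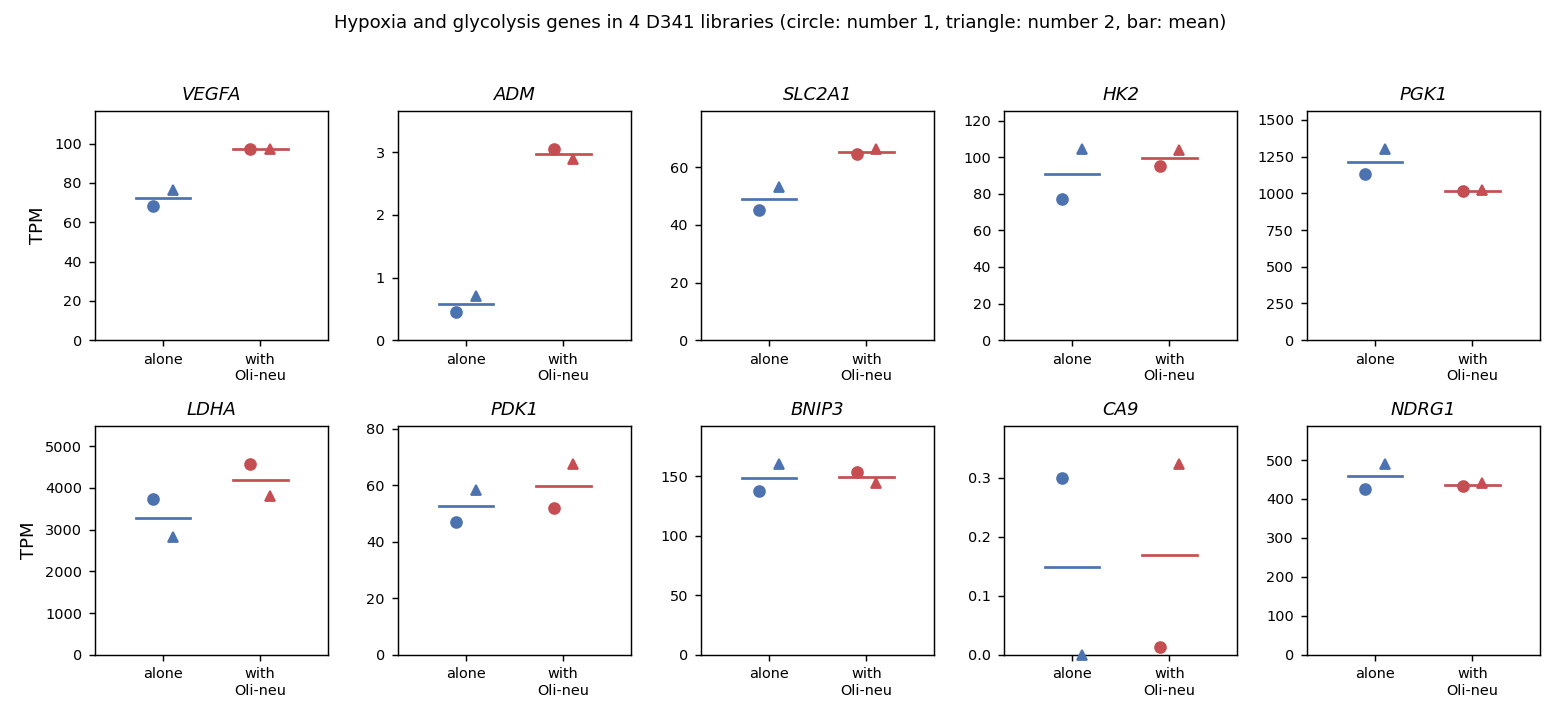
TPM of each of the 10 genes in the 4 D341 libraries, each panel with its own axis from 0. Circles are the libraries numbered 1, triangles those numbered 2 and bars the mean of 2. VEGFA, ADM, SLC2A1 and LDHA lie higher in both co-culture libraries, PGK1 lies lower, and the other 5 genes overlap.

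VEGFA (ENSG00000112715) encodes vascular endothelial growth factor A, the secreted signal that draws new vessels towards tissue short of oxygen. It was at 68.4 and 76.4 TPM in D341 alone and at 97.2 TPM in each co-culture library. The groups did not overlap, and the gap of 20.7 TPM between them exceeded the spread within either group, 72.4 ± 5.68 TPM alone and 97.2 ± 0.0195 TPM in co-culture (SD, n = 2). The near equality in co-culture held only in the deposited TPM and not after the scaling described below. Its log2 fold change was 0.42 with an SE of 0.12 and a 95% interval from 0.11 to 0.73 (limma adjusted p = 0.0929). Relative to the median of genes of its own level it was higher by 0.61 on the log2 scale, 0.70 within replicate number 1 and 0.51 within number 2. At that distance VEGFA stood at the 96.3 percentile of its class.

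ADM (ENSG00000148926) encodes the precursor of adrenomedullin, a secreted peptide that widens vessels and is among the strongest responders to HIF. It was at 0.451 and 0.702 TPM alone and at 3.05 and 2.89 TPM in co-culture. Both co-culture values thus lay several times above both values of D341 alone, although all 4 are low for this line, in which ADM ranked 9th of the 10 genes. On the scale of TPM + 1 its log2 fold change was 1.34. ADM reached the filter of 1 TPM only in co-culture, which fixed the direction of its test, so its p is not read as support. The scale understates the change of a gene near 1 TPM, and the log2 fold change was 2.21 with a pseudocount of 0.1 TPM and 0.52 with 5 TPM.

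SLC2A1 (ENSG00000117394) encodes GLUT1, the transporter through which most tumour cells take up glucose. It was at 45.0 and 53.0 TPM alone and at 64.6 and 66.3 TPM in co-culture, so the groups were separated by 11.6 TPM. On the log2 scale it was higher by 0.41 (SE 0.14, interval from 0.06 to 0.77, limma adjusted p = 0.115). That lay 0.61 above the median of its class, 0.71 within number 1 and 0.49 within number 2. SLC2A1 and VEGFA kept nearly the same proportion to each other in all 4 libraries. Their ratio of TPM was 0.659 and 0.694 alone and 0.664 and 0.682 in co-culture, with overlapping groups.

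The enzymes of glycolysis differed in direction. HK2 (ENSG00000159399), hexokinase 2, traps glucose in the cell by phosphorylation. It was at 77.0 and 104 TPM alone and at 95.2 and 104 TPM in co-culture, and the groups overlapped. The log2 fold change of 0.15 had an interval from -0.31 to 0.61 (limma adjusted p = 0.574), which holds both no change and a change as large as that of SLC2A1. HK2 lay 0.34 above the median of its class, 0.50 within number 1 and 0.16 within number 2. The SD was 19.4 TPM alone and 6.34 TPM in co-culture, and without D341 alone replicate 1 the value was -0.068.

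PGK1 (ENSG00000102144), phosphoglycerate kinase 1, makes the first ATP of glycolysis further down the pathway. It was at 1129.7 and 1301 TPM alone and at 1014 and 1024 TPM in co-culture, the only member that was lower without overlap. Its log2 fold change was -0.25 (SE 0.11, interval from -0.52 to 0.02, limma adjusted p = 0.169). That is close to the median of all genes, but genes as abundant as PGK1 were mostly higher in co-culture. Its log2 difference from their median was -0.50, -0.41 within number 1 and -0.58 within number 2. PGK1 stood at the 10.97 percentile of its class.

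LDHA (ENSG00000134333), the lactate dehydrogenase subunit that favours turning pyruvate into lactate, was the most abundant of the 10 and ranked 31 among all tested genes. It was at 3724 and 2818 TPM alone and at 4577 and 3799 TPM in co-culture. The lower co-culture library exceeded the higher library of D341 alone by only 75.5 TPM, far less than the SD of 641 TPM alone and 550 TPM in co-culture (n = 2). In both conditions the library numbered 1 was the higher one. Its log2 fold change was 0.36 (SE 0.17, interval from -0.07 to 0.80, limma adjusted p = 0.194). It was 0.57 without D341 alone replicate 1, 0.16 without its replicate 2 (limma adjusted p = 0.623), 0.23 without D341 with Oli-neu replicate 1 and 0.50 without its replicate 2. In the last of these limma called LDHA (adjusted p = 0.0498) along with 20.4% of all genes, from a co-culture group of 1 library whose spread was taken from D341 alone. The value lay 0.67 above the median of all genes. Against genes of its own class LDHA was higher by only 0.11, 0.039 within number 1 and 0.20 within number 2.

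**Figure D2:**
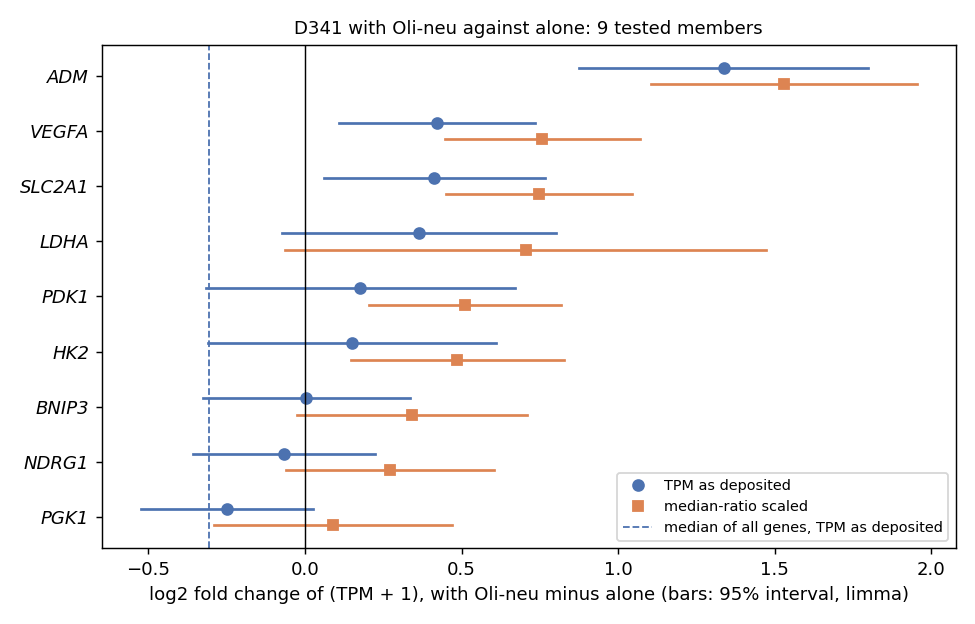
Log2 fold change of TPM + 1 of the 9 tested genes, co-culture minus alone, with 95% intervals from limma; circles are TPM as deposited and squares TPM after median-ratio scaling, and the dashed line is the median of all genes at -0.31. Of the genes with at least 1 TPM throughout, VEGFA and SLC2A1 have intervals above 0 on both scales, while PGK1 lies nearest to the dashed line.

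A pair of members act on mitochondria. PDK1 (ENSG00000152256), a pyruvate dehydrogenase kinase, keeps pyruvate out of the citric acid cycle. It was at 46.9 and 58.2 TPM alone and at 51.8 and 67.6 TPM in co-culture, with overlap, and its log2 fold change was 0.18 (interval -0.32 to 0.67, limma adjusted p = 0.535). Without D341 with Oli-neu replicate 2 it was -0.012. The co-culture library was the higher one within each number, and PDK1 lay 0.34 and 0.38 above the median of its class. BNIP3 (ENSG00000176171), which marks mitochondria for removal by autophagy, was at 137 and 160 TPM alone and at 154 and 144 TPM in co-culture. Here the pairs went in opposite directions, 0.16 for number 1 and -0.15 for number 2, and the log2 fold change was 0.00 (interval -0.33 to 0.33, limma adjusted p = 0.985). Against its class it lay higher by 0.36 within number 1 and by 0.013 within number 2.

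CA9 (ENSG00000107159), carbonic anhydrase IX, sits on the cell surface, handles acid and is one of the genes most tightly tied to HIF-1. It was listed at 0.299 and 0 TPM alone and at 0.0128 and 0.323 TPM in co-culture. The highest value was thus below the filter of 1 TPM in either condition, and CA9 was not tested. NDRG1 (ENSG00000104419), a protein linked to differentiation and to the spread of tumours that is raised by hypoxia and by iron shortage, was at 426 and 490 TPM alone and at 432 and 441 TPM in co-culture. Its groups overlapped, and its log2 fold change of -0.07 (interval -0.36 to 0.22, limma adjusted p = 0.697) lay 0.03 below the median of its own class.

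By level, LDHA and PGK1 came first and second, followed by NDRG1, BNIP3, HK2, VEGFA, SLC2A1, PDK1, ADM and CA9. Libraries of SLC2A1 and PDK1 overlapped in both conditions, and those of HK2 and VEGFA in co-culture, where HK2 was at 95.2 and 104 TPM and VEGFA at 97.2 TPM. The other neighbours in this order did not overlap within either condition. Together the 10 genes held 0.565% and 0.506% of TPM alone and 0.649% and 0.575% in co-culture, most of it LDHA and PGK1.

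**Figure D3:**
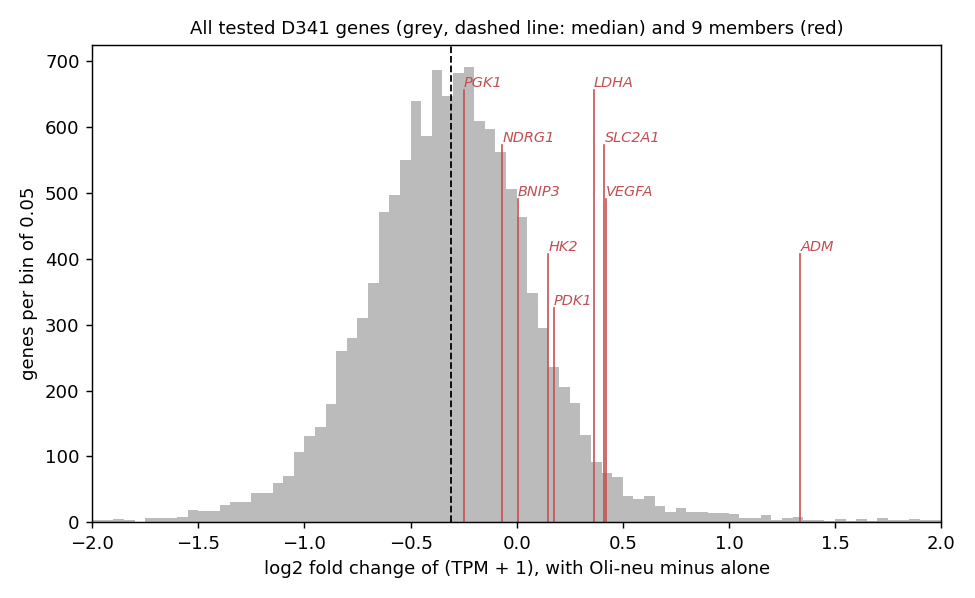
Histogram of the log2 fold change of TPM + 1, co-culture minus alone, over the 12403 tested D341 genes, in bins of 0.05 between -2 and 2, with the 9 tested members as red lines whose heights have no meaning. The dashed line is the median of all genes at -0.31, which holds many genes of lower level. All 9 members lie to its right, but ADM entered the test only through its co-culture libraries. PGK1 and NDRG1 lie below the median of genes of their own level.

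Median-ratio scaling divides each library by its typical gene and so puts the median of all genes at 0.00. On that scale limma called 0 of the 8 members with at least 1 TPM throughout, while it called 1.33% of all genes as higher. The smallest adjusted p values among the 8 were 0.0539 for SLC2A1, at 0.75, and 0.0573 for VEGFA, at 0.76, in limma. Scaled VEGFA was at 64.5 and 63.7 alone and at 117.5 and 101.1 in co-culture. ADM, which was tested only because of its co-culture libraries, was at 1.53. LDHA was at 0.70 (interval -0.06 to 1.47), PDK1 at 0.51 (0.20 to 0.82), HK2 at 0.49 (0.15 to 0.83), BNIP3 at 0.34 (-0.03 to 0.71), NDRG1 at 0.27 (-0.06 to 0.60) and PGK1 at 0.090 (-0.29 to 0.47). The sign of NDRG1 and of PGK1 was therefore positive here and negative in the deposited TPM. Of the 8 members with at least 1 TPM throughout, 7 were higher without overlap on this scale, where 29.7% of all genes were, and PGK1 overlapped. This scaling removes 1 common factor per library and does not remove the dependence of the shift on level.

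Ratios between members within a library are free of any scaling. PGK1 was taken as the denominator after its values were seen. LDHA stood at 3.30 and 2.17 times PGK1 alone and at 4.51 and 3.71 times in co-culture. The ratio of VEGFA to PGK1 was 0.0605 and 0.0587 alone and 0.0958 and 0.0949 in co-culture, and that of SLC2A1 was 0.0399 and 0.0407 against 0.0636 and 0.0647. For these 3 genes the mean ratio was higher in co-culture by a factor of 1.51, 1.60 and 1.59, and the groups did not overlap. The ratios of PDK1 (1.36), HK2 (1.32), BNIP3 (1.19) and NDRG1 (1.14) to PGK1 were also higher without overlap. NDRG1 and PGK1 kept their ratio closely within each condition, at 0.377 in both libraries alone and at 0.426 and 0.430 in co-culture. PGK1 was also the member furthest below genes of its own level and the only one lower without overlap, so its lower values raise every one of these ratios. How many of all genes were higher against PGK1 without overlap was not counted. Of 4 ratios without PGK1, those of LDHA and SLC2A1 to VEGFA and of LDHA to HK2 overlapped. LDHA to VEGFA, for example, was 54.5 and 36.9 alone and 47.1 and 39.1 in co-culture. The ratio of SLC2A1 to HK2 was higher in co-culture without overlap, at 0.678 and 0.636 against 0.585 and 0.508 alone.

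**Figure D4:**
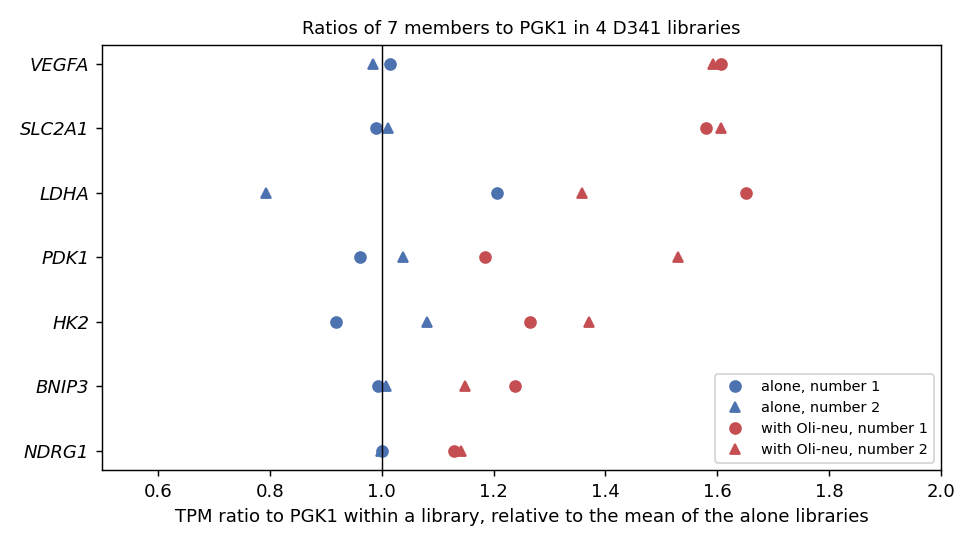
TPM of 7 genes divided by that of PGK1 in the same library, relative to the mean ratio of the 2 libraries of D341 alone (line at 1). Circles are libraries numbered 1 and triangles those numbered 2. Every co-culture point (red) lies to the right of both points of D341 alone (blue) for the same gene. PGK1 was chosen after its values were seen, and its lower values in co-culture raise every ratio.

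The mouse counterparts were read in the 2 lines that grew in the same kind of co-culture, from tables normalized apart from that of D341, so that no difference between lines was tested. MB1, from a Sonic hedgehog medulloblastoma of an Atoh1-cre:SmoM2 mouse, was grown alone or with Oli-neu, and Oli-neu was grown alone or with D341 (2 libraries each). The Oli-neu fit also held 2 libraries of Oli-neu grown with MB1. In both lines limma called 0 genes, and 0 of the 10 counterparts. At an unadjusted p under 0.05, 3 counterparts, Hk2, Pdk1 and Bnip3, were lower in MB1, as were 12.6% of its genes. In Oli-neu 2 were, Vegfa and Pdk1, as were 12.1% of its genes. The medians of all genes were -0.17 in MB1 and -0.16 in Oli-neu. The first principal component, the axis of largest spread, held 58.6% of the variance of Oli-neu alone and with D341. It placed the libraries numbered 1 at -32.0 and -31.4 and those numbered 2 at 32.1 and 31.2. That axis thus split them by replicate number and not by condition. Same-numbered deviations correlated across genes with r = 0.59, against 0.21 in D341 and -0.12 in MB1. With the replicate number as a block limma still called 0 genes in Oli-neu.

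In MB1, 5 of the 10 counterparts were lower without overlap, where 41.5% of its genes were, and 0 were higher, where 10.9% were. After median-ratio scaling Vegfa, Hk2, Pdk1 and Bnip3 stayed lower without overlap and Car9 overlapped. The share of all MB1 genes that were lower without overlap on that scale is not given here. These genes are therefore not set against all genes on that scale. Hk2 was at 31.0 and 29.9 TPM alone and at 13.2 and 10.7 TPM with Oli-neu, which is -1.29 on the log2 scale (SE 0.17, limma adjusted p = 0.249). Pdk1 was at 108 and 120.9 TPM alone and at 66.3 and 62.2 TPM with Oli-neu (-0.82, limma adjusted p = 0.282), and Bnip3 at 280.5 and 321 against 183 and 161 TPM (-0.80, limma adjusted p = 0.282). In D341 these 3 genes had overlapping groups and values of 0.15, 0.18 and 0.00. Vegfa was at 658 and 842 TPM in MB1 alone and at 478 and 578 TPM with Oli-neu (-0.50, limma adjusted p = 0.330), lower in both libraries where VEGFA of D341 was higher.

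In Oli-neu beside D341, 8 of the 10 counterparts were lower without overlap, where 44.0% of its genes were. After median-ratio scaling Vegfa, Pdk1 and Bnip3 stayed lower without overlap, while Hk2, Ldha, Car9, Pgk1 and Ndrg1 overlapped. Slc2a1 and Adm were higher without overlap on that scale. The shares of all Oli-neu genes that were lower or higher without overlap after scaling are not given here. These scaled directions are therefore not set against all genes. Vegfa was at 1212 and 1441 TPM alone and at 816 and 932 TPM with D341 (-0.60, limma adjusted p = 0.320). Ldha was at 849.9 and 852 TPM alone and at 638 and 732 TPM with D341 (-0.32, limma adjusted p = 0.390). Adm was at 95.6 and 95.8 TPM alone and at 109 and 101 TPM with D341 (0.13, limma adjusted p = 0.631). In the deposited TPM it was the only one higher without overlap, where 7.12% of all Oli-neu genes were. Car9 was present in both mouse lines, at 13.0 and 14.4 TPM in MB1 alone and at 90.5 and 78.2 TPM in Oli-neu alone, while CA9 stayed below 1 TPM in D341.

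**Figure D5:**
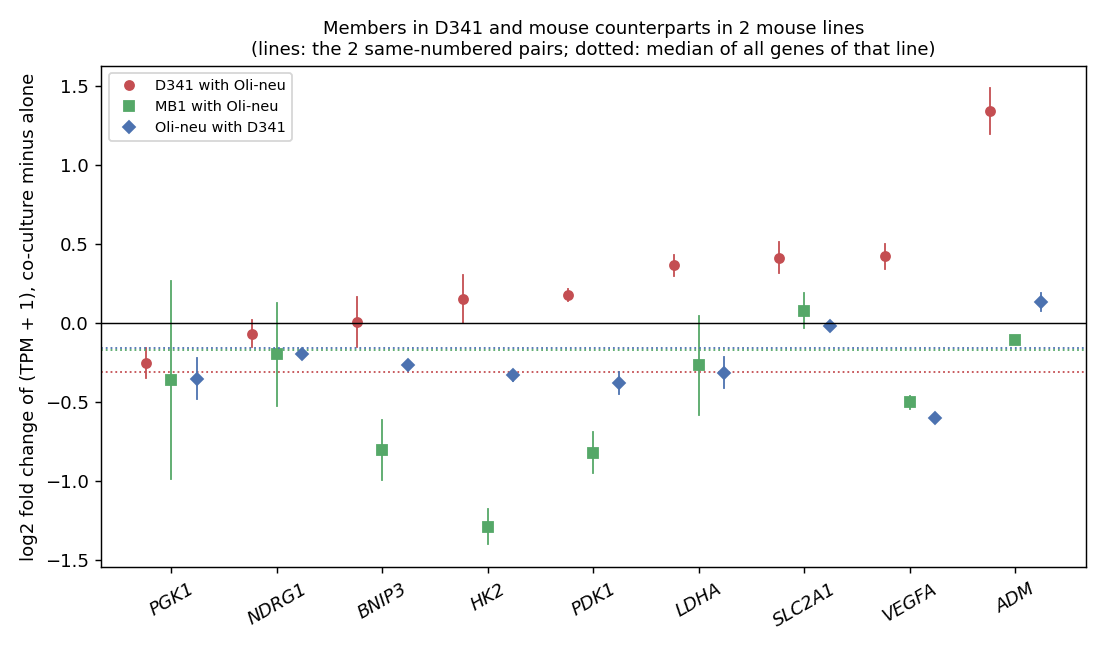
Log2 fold change of TPM + 1, co-culture minus alone, of 9 members in D341 (circles) and of their mouse counterparts in MB1 with Oli-neu (squares) and Oli-neu with D341 (diamonds). Each vertical line spans the 2 same-numbered pairs of libraries, and dotted lines are the medians of all genes, -0.31, -0.17 and -0.16; VEGFA lies at 0.42 in D341 and at -0.50 and -0.60 in the mouse lines.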

How the data were processed

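The deposited values are TPM for each Ensembl gene, with 1 table per cell line; every column was checked to sum to 1000000. Per the submitters' processing notes the tools were Salmon 0.14.1, FastQC 0.11.8, MultiQC 1.7 and DESeq2 1.22.2, and the builds GRCh38 and GRCm38; the annotation release is not given in the sources used here. There are no counts, so depth and counting error are unknown. A gene was tested where 2 or more libraries had 1 TPM or more. limma 3.58.1 in R 4.3.3 was run on log2(TPM + 1) with a mean-variance trend, two-sided, with Benjamini-Hochberg adjustment over every gene tested and a threshold of 0.05. D341 and MB1 were each fitted with 4 libraries. Oli-neu was fitted with 6, which included 2 of Oli-neu grown with MB1, and all 6 shared 1 estimate of the spread. The fit was tested on simulated data with independent noise and no shift of all genes, so that test does not cover the shift seen here. Errors are the SD of 2 libraries for TPM and the moderated SE for log2 fold changes. Human symbols are those given with the list; mouse identifiers were matched by symbol in GENCODE annotation of GRCm38. The 10 members and their counterparts are all named. Members and lists were chosen with earlier results of these data known. Tried as alternatives were a pseudocount of 0.1 or 5 TPM, a filter of 5 TPM or none, median-ratio scaling, no trend, robust=TRUE, the replicate number as a block, and leaving out each library.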

Additional observations from a re-analysis of the deposited data

Results flagged for a closer look

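VEGFA and its mouse counterpart lay in opposite directions without overlap of the libraries. The log2 fold change was 0.42 in D341 with Oli-neu, -0.50 in MB1 with Oli-neu and -0.60 in Oli-neu with D341. LDHA and Ldha did so between D341, at 0.36, and Oli-neu with D341, at -0.32, but only in the deposited TPM. After median-ratio scaling the Ldha groups overlapped, at -0.13 (interval -0.50 to 0.24). In D341 64.5% of genes in the class of LDHA were higher without overlap, and in Oli-neu 44.0% of all genes were lower. The tables were normalized apart, so these differences between lines were not tested. The medians of all genes were -0.31, -0.17 and -0.16.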

How the results depend on the processing

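The 78 genes that limma called in D341 became 0 without a filter, 147 with a pseudocount of 5 TPM, 137 with a filter of 5 TPM, 268 with median-ratio scaling, 134 without a trend and 414 with robust=TRUE. Without D341 alone replicate 1 the count was 1, without its replicate 2 it was 1, without D341 with Oli-neu replicate 1 it was 524 and without its replicate 2 it was 2484. Among the members 1, ADM, was called with a pseudocount of 5 TPM, median-ratio scaling, no trend and robust=TRUE; it entered the test only through its co-culture libraries, so these calls support nothing. With each library left out in turn 0 to 1 was called, LDHA (limma adjusted p = 0.0498) without D341 with Oli-neu replicate 2. ADM could not be tested without either co-culture library or with a filter of 5 TPM. With the replicate number as a block 3475 of 12403 tested genes were called, or 28%, 326 of them higher and 3149 lower. Among these were 3 members, VEGFA, LDHA and ADM (limma adjusted p = 0.0457, 0.0389 and 0.0345). The call of ADM again supports nothing, since the filter fixed its direction. In D341 the deviations of same-numbered libraries correlated with r = 0.21 across genes, which are not independent replicates. There were 2 pairs, and no label says what a number shares.

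The median of the tested members lay 0.48 above that of all genes, 0.26 without a filter, 0.38 with a pseudocount of 5 TPM and 0.41 to 0.55 with each library left out. The 0.48 includes ADM, whose direction the filter fixed, and is set against many genes of lower level. Against their own class of level the 8 other tested members ran from -0.50 for PGK1 to 0.61 for VEGFA. Signs turned for PGK1 (0.090) and NDRG1 (0.27) with median-ratio scaling, for NDRG1 (0.034) without D341 alone replicate 2, for HK2 (-0.068) and BNIP3 (-0.11) without its replicate 1, for BNIP3 (-0.043) without D341 with Oli-neu replicate 1 and for PDK1 (-0.012) without its replicate 2. With a library left out HK2 ran from -0.068 to 0.37, PDK1 from -0.012 to 0.37 and BNIP3 from -0.11 to 0.12. NDRG1 ran from -0.17 to 0.034, PGK1 -0.35 to -0.15, VEGFA 0.34 to 0.50, SLC2A1 0.30 to 0.53 and LDHA 0.16 to 0.57. VEGFA, SLC2A1 and LDHA had no overlap, so only median-ratio scaling could turn their sign and did not. Where a group was left with 1 library, its spread was taken from the other group. In MB1, 9 genes were called with robust=TRUE and 1 to 112 with a library left out, 112 without MB1 alone replicate 1, and 0 otherwise. The median of its counterparts, -0.14 from that of all genes, was -0.26 without a filter, -0.41 without MB1 alone replicate 1, 0.098 without its replicate 2, -0.20 without MB1 with Oli-neu replicate 1 and -0.0096 without its replicate 2. In Oli-neu 3 were called without a filter and 0 to 2 with a library left out, and the median of the counterparts moved from -0.13 to -0.25 without a filter. The causes were not tested.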
